A study of Mus musculus with 9 samples.

Results

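Ribosomal protein genes of the cytosolic ribosome were followed in RNA sequencing of mouse primary Leydig cells. Levels are in FPKM, which counts sequenced fragments per length of a gene's transcript and per total of fragments in the library. Members were the genes whose symbol begins with Rpl or Rps and a digit, together with Rpsa, Rplp0, Rplp1 and Rplp2, while pseudogene symbols with -ps and the Rps6k kinases were left out. The rule gave 88 of the 19058 genes in the table. They comprise 46 proteins of the large subunit, 31 of the small subunit, 9 paralogs or retrogenes and 2 other genes named after a ribosomal protein (Rpl7l1 and Rps19bp1). The rule reads gene symbols and no measured value.

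Each cytosolic ribosome carries 1 copy of nearly every ribosomal protein, so cells hold their messages at high and similar levels. Most of these messages begin with a run of pyrimidines, the TOP motif, through which the kinase mTOR controls how strongly they are translated. Leydig cells lie between the seminiferous tubules, make testosterone and secrete the peptide hormone Insl3. Some ribosomal proteins have paralogs that are used in male germ cells or striated muscle, and their parents serve in the other cell types.

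All 9 libraries came from Leydig cells of wild-type testis. Of these, 3 were from cells treated with TPhP (triphenyl phosphate, a flame retardant and plasticiser), 3 from cells treated with DPhP (diphenyl phosphate, a metabolite of TPhP that lacks 1 of its phenyl esters) and 3 from control cells. Dose, exposure time, the age of the mice and the vehicle of the control are unknown from the sources used here. The labels leave it unsaid whether replicate libraries stem from separate cultures or mice, and the p-values below then reflect library-to-library spread, possibly technical.

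The summed FPKM of all genes was 419107 to 422363 in the TPhP libraries, 398680 to 401930 in the DPhP libraries and 421963 to 428928 in the control libraries. DPhP libraries were far from the remaining 6, and the labels do not say whether they were prepared apart from them, so preparation and treatment cannot be told apart. Of 12369 genes that reached 1 FPKM in 3 or more libraries, 71% were called in DPhP against control and 6.22% in TPhP against control (limma on log2(FPKM + 1), Benjamini-Hochberg adjusted p under 0.05). Most Leydig cell markers also went against the label in DPhP. Star did not, at 29.9 to 32.4 FPKM in DPhP and 29.6 to 33.4 FPKM in control libraries. Nr5a1 fell less than Insl3, to 32.4 to 34.8 FPKM in DPhP from 47.9 to 49.4 FPKM in control libraries. The hormone Insl3 was at 529 to 566 FPKM in TPhP, 10.4 to 12.4 FPKM in DPhP and 525 to 556 FPKM in control libraries. The summed level of 8 Leydig markers was 1759 to 1828 FPKM in TPhP, 328 to 343 FPKM in DPhP and 1670 to 1785 FPKM in control libraries, and Cyp17a1 and Hsd17b3 were under 1 FPKM in all of them. The summed level of 5 peritubular myoid markers was 583 to 618 FPKM in TPhP, 1528 to 1585 FPKM in DPhP and 592 to 660 FPKM in control libraries. That of 8 macrophage markers was 1223 to 1238 FPKM in TPhP, 1686 to 1799 FPKM in DPhP and 1279 to 1294 FPKM in control libraries. Lyz2 made up most of it, at 1422 to 1546 FPKM in DPhP and 1046 to 1078 FPKM in control libraries. Csf1r went the other way, at 22.8 to 23.4 FPKM in DPhP and 30.8 to 32.1 FPKM in control libraries. For 8 Sertoli markers the sum was 263 to 269 FPKM in TPhP, 330 to 341 FPKM in DPhP and 250 to 252 FPKM in control libraries. Clu made up most of this, at 272 to 286 FPKM in DPhP and 230 to 233 FPKM in control libraries. Germ cell and blood markers were low, and 12 germ cell markers summed to 23.6 to 31.4 FPKM in TPhP, 5.35 to 5.83 FPKM in DPhP and 26.3 to 48.3 FPKM in control libraries, with Prm2 and the globins at 0 in all DPhP libraries. In DPhP, 5 of 6 tested Leydig markers were lower, while 5 of 5 myoid, 4 of 4 Sertoli and 6 of 8 macrophage markers were higher. Fewer cells of a type and less RNA per cell cannot be told apart in bulk libraries, and the part of cell composition in the results on ribosomal proteins was not tested.

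Start-site windows are shown for 8 members, to set messages that fell in DPhP beside messages that rose. They run from 30 bases before to 30 bases after the start of a RefSeq transcript (GRCm38.p6), on the strand of the gene. Capitals mark the longest run of at least 8 C or T that begins with C and lies wholly inside the window. Rpl38 (chr11:114668550-114668609, + strand), Rplp2 (chr7:141447621-141447680, + strand) and Rpl22l1 (chr3:28805478-28805537, + strand) were lower in DPhP than in control. Rpl27a (chr7:109519165-109519224, + strand), Rps26 (chr10:128626477-128626536, - strand) and Rps15a (chr7:118116118-118116177, - strand) were higher in DPhP. Rps15 (chr10:80292401-80292460, + strand) and Rps4x (chrX:102189362-102189421, - strand), which were also higher, have no such run wholly inside this window. Both of these windows end in a stretch of C or T, and a run that crosses the edge would not be marked.
Rpl38: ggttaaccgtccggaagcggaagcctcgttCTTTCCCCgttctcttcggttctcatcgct
Rplp2: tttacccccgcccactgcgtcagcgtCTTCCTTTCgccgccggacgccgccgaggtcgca
Rpl22l1: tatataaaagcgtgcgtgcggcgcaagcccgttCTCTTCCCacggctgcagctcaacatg
Rpl27a: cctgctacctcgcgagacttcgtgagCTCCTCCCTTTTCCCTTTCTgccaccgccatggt
Rps26: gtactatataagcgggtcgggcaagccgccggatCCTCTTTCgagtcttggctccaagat
Rps15a: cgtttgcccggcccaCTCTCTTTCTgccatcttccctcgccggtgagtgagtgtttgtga
Rps15: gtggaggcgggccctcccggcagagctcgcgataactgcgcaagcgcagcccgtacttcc
Rps4x: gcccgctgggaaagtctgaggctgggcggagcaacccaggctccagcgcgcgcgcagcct

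The run was common in the family and occurred in messages of both directions. Members without a marked run in such windows also occurred in both directions. Rps19 (-0.43), Rps16 (-0.42) and Rps3 (-0.29), not shown above, were lower in DPhP and had none. Windows were found for 68 of the 88 members. A run of this kind lay within 50 bases of the start, on the sense strand, in 79.4% of these members and in 31.5% of 27025 genes. The median log2 fold change in DPhP against control was -0.14 over 51 tested members with the run and -0.04 over 13 without it. On either strand of the 300-base windows, CCGGAAG, the core of a site for ETS factors, was in 38.2% of members and 9.93% of genes. AAGATGG was in 14.7% of members and 7.28% of genes, and TATAAA in 11.8% of members and 15.7% of genes. The reverse complement of CCGGAAG can overlap a pyrimidine run. A match is only a string of letters and does not show a used site.

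Ribosomal proteins were among the most abundant messages of these cells. Of the 100 genes with the highest mean FPKM, 46 were members, and of the top 50, 21. The 77 constituents of the subunits had mean levels of 16.6 to 1897 FPKM with a median of 613 FPKM. Only 7 were over 1000 FPKM and 7 under 100 FPKM. Rps2, a small-subunit protein at the mRNA entry site, was the highest, with 1846, 1988 and 1916 FPKM in TPhP, 1835, 1754 and 1781 FPKM in DPhP, and 1978, 2029 and 1942 FPKM in control libraries. Next in order were Rpl23a, which lies at the exit of the peptide tunnel, Rpl10, which joins the large subunit late in its assembly, Rplp0, the base of the stalk, and Rps3a1. Their means were 1358, 1298, 1154 and 1113 FPKM, and Rps2 was above them in every library. The ranges of Rpl23a and Rpl10 overlap, as do those of Rplp0 and Rps3a1, while Rpl10 was above Rplp0 in every library. Replicates lay close together, with a median coefficient of variation over constituents of 3.69% in TPhP, 3.62% in DPhP and 3.43% in control libraries.

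**Figure D1:**
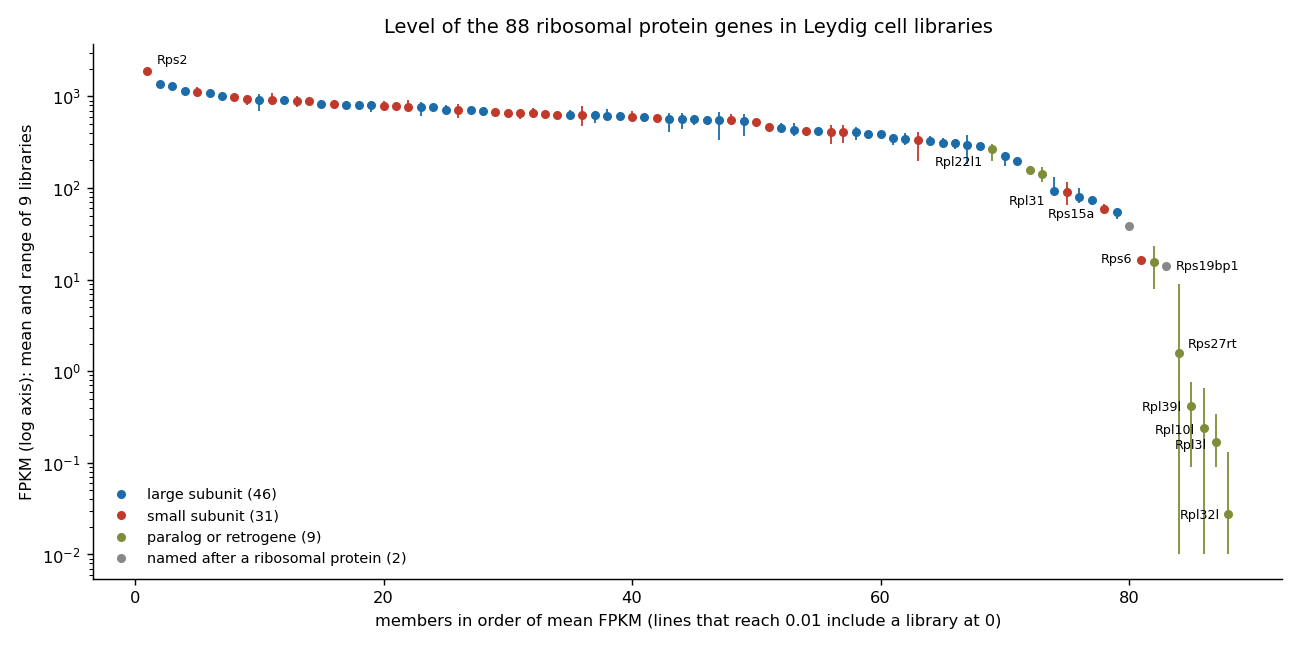
Mean FPKM over 9 libraries (points, log axis) and the range over libraries (lines) for each of the 88 members in order of the mean, coloured by kind. A plateau of subunit proteins runs down from Rps2, and the lowest 5 genes are paralogs or retrogenes.

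Paralogs known from other tissues were near 0. Rpl10l, a retrocopy of the X-linked Rpl10 that mouse spermatocytes need, was at 0.21, 0.34 and 0.05 FPKM in TPhP, 0, 0.25 and 0.15 FPKM in DPhP, and 0.66, 0.28 and 0.20 FPKM in control libraries. Rpl39l, the germ cell paralog of Rpl39, stayed under 1 FPKM, as did Rpl3l, the muscle paralog of Rpl3, and Rpl32l. These 4 members were not tested, which left 84. The paralogs used more broadly were well detected. Rpl22l1 averaged 292 ± 17.5 FPKM in TPhP, 210 ± 17.2 FPKM in DPhP and 289 ± 8.26 FPKM in control libraries (SD, n = 3 each), above its parent Rpl22 at 75.5 ± 4.05 FPKM in TPhP, 71.9 ± 2.60 FPKM in DPhP and 77.5 ± 2.96 FPKM in control libraries. Rpl36al averaged 160 ± 5.24 FPKM in TPhP, 149 ± 5.72 FPKM in DPhP and 164 ± 11.4 FPKM in control libraries. Rps27l, a target of p53, averaged 156 ± 18.1 FPKM in TPhP, 125 ± 6.19 FPKM in DPhP and 146 ± 5.46 FPKM in control libraries. Both were below their parents Rpl36a and Rps27 in every library.

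The family as a whole took about the same share of the transcriptome in the 3 groups. The 88 members summed to 48080, 48963 and 46839 FPKM in TPhP, 46283, 46170 and 44616 FPKM in DPhP, and 48989, 50539 and 48456 FPKM in control libraries. The DPhP libraries were below all others, and the TPhP and control ranges overlap. The summed level in DPhP was -7.38% from that in control, and in TPhP it was -2.77% from control. As a share of each column's sum, the members took 11.4%, 11.6% and 11.2% in TPhP, 11.5%, 11.5% and 11.2% in DPhP, and 11.6%, 11.8% and 11.5% in control libraries. On this scale all 3 groups overlap, and the DPhP difference came to -1.74%. The ratio of the large-subunit sum to the small-subunit sum does not depend on the column's scale. It was 1.31, 1.29 and 1.30 in TPhP, 1.24, 1.27 and 1.25 in DPhP, and 1.32, 1.30 and 1.33 in control libraries, so DPhP was below both other groups in every library.

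In DPhP the members did not move together. Of the 84 tested, 15 were higher (among them Rps27rt, which passed the filter only through DPhP), 47 lower and 22 not called against control, 73.8% called, beside 71% of all tested genes. Those lower made up 56.0% of members, beside 37.9% of all genes, and those higher 17.9%, beside 33.1%. The median log2 fold change was -0.13 over members and -0.02 over all genes. Among large-subunit proteins 5 were higher and 26 lower of 46, and among small-subunit proteins 8 were higher and 17 lower of 31. After scaling each column to a common sum the split was 26 higher and 30 lower (median -0.05 over members and 0.06 over all genes), with 11 and 18 in the large subunit and 12 and 11 in the small subunit. At a common sum 72.3% of all genes were called, 42.2% higher and 30.1% lower.

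**Figure D2:**
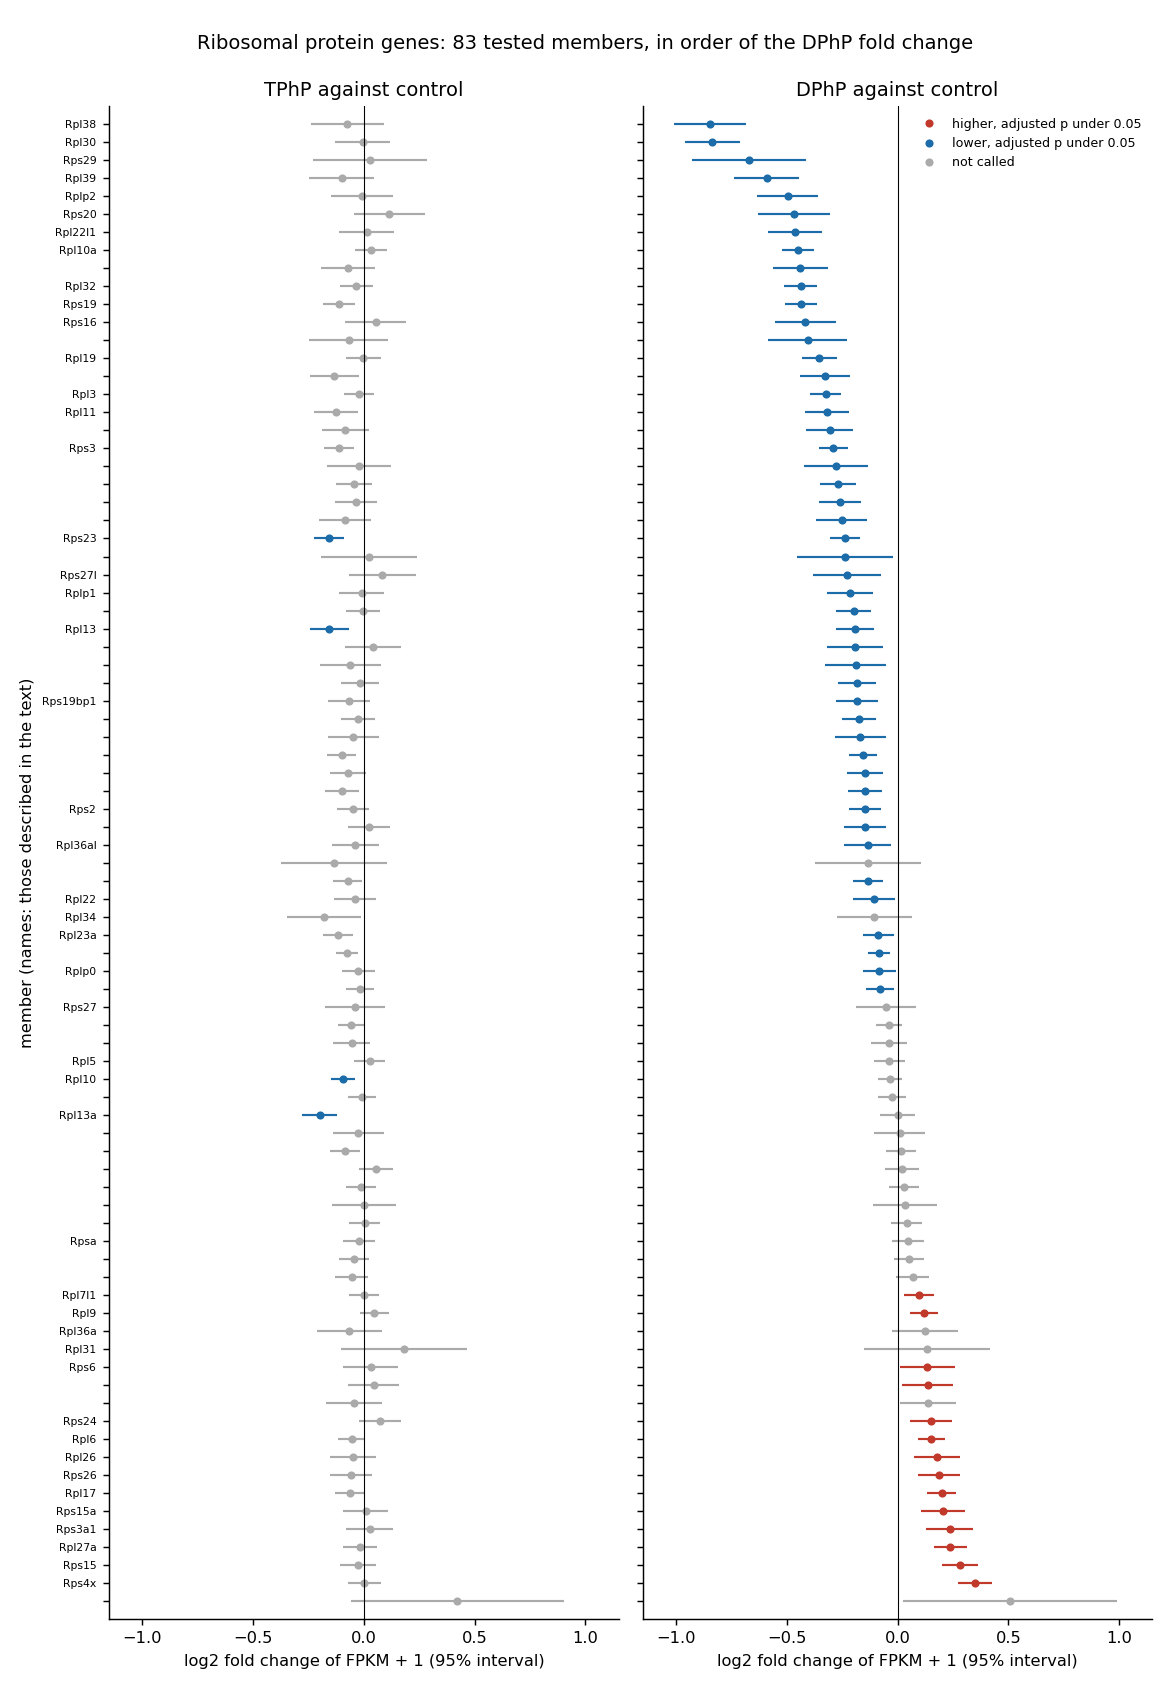
Log2 fold change of FPKM + 1 (horizontal axis) with its 95% interval for 83 tested members, ordered by the DPhP value, in TPhP against control (left) and DPhP against control (right). Colours mark members called higher or lower at an adjusted p under 0.05: 4 lower in TPhP, and 47 lower and 14 higher in DPhP, where Rps27rt, the 15th higher, is not drawn because it is near 0 FPKM. Names are given for members described in the text.

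Calls that held in DPhP under each of the 22 alternatives of the fit went in both directions. Leaving Rps27rt aside, 11 of 14 were higher in every one, namely Rpl6, Rpl9, Rpl17, Rpl26, Rpl27a, Rps3a1, Rps4x, Rps15, Rps15a, Rps24 and Rps26. Lower in every one were 14 of the 47, namely Rpl3, Rpl10a, Rpl19, Rpl22l1, Rpl30, Rpl32, Rpl38, Rpl39, Rplp2, Rps3, Rps16, Rps19, Rps20 and Rps29. The other 33 lower calls were lost under at least 1 alternative: 30 of the 47 were kept at a common sum and 14 when the trend with transcript length was removed. These settings raised the member median from -0.13 to -0.05 and 0.09, so they were stricter for lower than for higher calls. All 15 higher calls were kept under both.

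Rpl38 and Rpl30, small proteins of the large subunit, fell the most in DPhP, and Rpl39 of the same subunit came after Rps29. Rpl38 (chr11:114667818-114672333), whose loss in mice shortens the tail and alters translation of Hox messages, was at 352, 361 and 289 FPKM in TPhP, 202, 196 and 185 FPKM in DPhP, and 339, 379 and 334 FPKM in control libraries. DPhP was below every other library, and TPhP and control overlap. Its log2 fold change in DPhP against control was -0.85 ± 0.07 (SE, adjusted p = 1.06e-06), and -0.76 at a common sum. Rpl30 (chr15:34440505-34443276), which in mammals also binds selenoprotein messages, was at 649, 683 and 594 FPKM in TPhP, 386, 358 and 337 FPKM in DPhP, and 635, 621 and 674 FPKM in control libraries. Here too DPhP lay apart from both other groups, with a log2 fold change of -0.84 ± 0.06 (adjusted p = 1.03e-07), and -0.75 at a common sum. Rpl39 (chrX:37082518-37085222), which lines the peptide exit tunnel, was at 595, 603 and 534 FPKM in TPhP, 450, 410 and 374 FPKM in DPhP, and 651, 626 and 579 FPKM in control libraries. The DPhP values were again the lowest, and the log2 fold change was -0.59 ± 0.07 (adjusted p = 9.35e-06), and -0.51 at a common sum. Removing the length trend of all genes lowered the size of these falls to -0.47 for Rpl38, -0.62 for Rpl30 and -0.28 for Rpl39.

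The stalk proteins, which draw elongation factors to the ribosome, were lower in DPhP. Rplp2 was at 655, 665 and 564 FPKM in TPhP, 478, 451 and 412 FPKM in DPhP, and 611, 643 and 635 FPKM in control libraries, with a log2 fold change of -0.50 ± 0.06 (adjusted p = 2.40e-05). Rplp1 averaged 1062 ± 37.2 FPKM in TPhP, 921 ± 49.4 FPKM in DPhP and 1070 ± 58.8 FPKM in control libraries, and fell by 0.21 on the log2 scale (adjusted p = 0.00152), a call lost with quantile normalization. With the length trend removed Rplp1 was called higher instead (0.14, adjusted p = 0.00629). The stalk base Rplp0 had overlapping DPhP and control values and a log2 fold change of -0.08 at an adjusted p of 0.0499. That call was lost under 14 of 22 alternatives.

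In the small subunit, Rps29 and Rps20, both proteins of the head, fell the most in DPhP. Rps29 (chr12:69157722-69159186) was at 412, 409 and 337 FPKM in TPhP, 283, 237 and 198 FPKM in DPhP, and 398, 400 and 337 FPKM in control libraries. DPhP lay below every other library while TPhP and control overlap, and Rps29 varied more within each group than most members. Its log2 fold change was -0.67 ± 0.12 (adjusted p = 0.000312), or -0.26 with the length trend removed. Rps20 (chr4:3831584-3835655) was at 104, 115 and 94.9 FPKM in TPhP, 73.3, 70.0 and 65.0 FPKM in DPhP, and 99.5, 103 and 87.4 FPKM in control libraries. It changed by -0.47 ± 0.07 (adjusted p = 0.000129) on the log2 scale, and with the length trend removed by -0.52.

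The largest called rises apart from Rps27rt were those of Rps4x and Rps15, both of the small subunit. Rps4x (chrX:102184941-102189391), the X-linked copy of a pair whose partner is Y-linked in humans, was at 869, 825 and 831 FPKM in TPhP, 1072, 1091 and 1052 FPKM in DPhP, and 826, 883 and 813 FPKM in control libraries. The DPhP libraries were above all the others, with a log2 fold change of 0.35 ± 0.03 (adjusted p = 2.73e-06), and 0.44 at a common sum. Rps15 (chr10:80292431-80294114), whose tail reaches toward the decoding site, was at 710, 727 and 693 FPKM in TPhP, 918, 877 and 842 FPKM in DPhP, and 725, 748 and 696 FPKM in control libraries. It rose by 0.28 ± 0.04 (adjusted p = 3.10e-05), and by 0.37 at a common sum. Rpl27a (0.24 ± 0.03), Rps3a1 (0.24 ± 0.05), Rps15a (0.21 ± 0.05), Rpl17 (0.20 ± 0.03) and Rps26 (0.19 ± 0.04) were likewise higher in each DPhP library than in any control library. With the length trend removed, these log2 fold changes were 0.55 for Rps4x, 0.60 for Rps15, 0.39 for Rpl27a, 0.43 for Rps3a1, 0.11 for Rps15a, 0.45 for Rpl17 and 0.47 for Rps26.

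**Figure D3:**
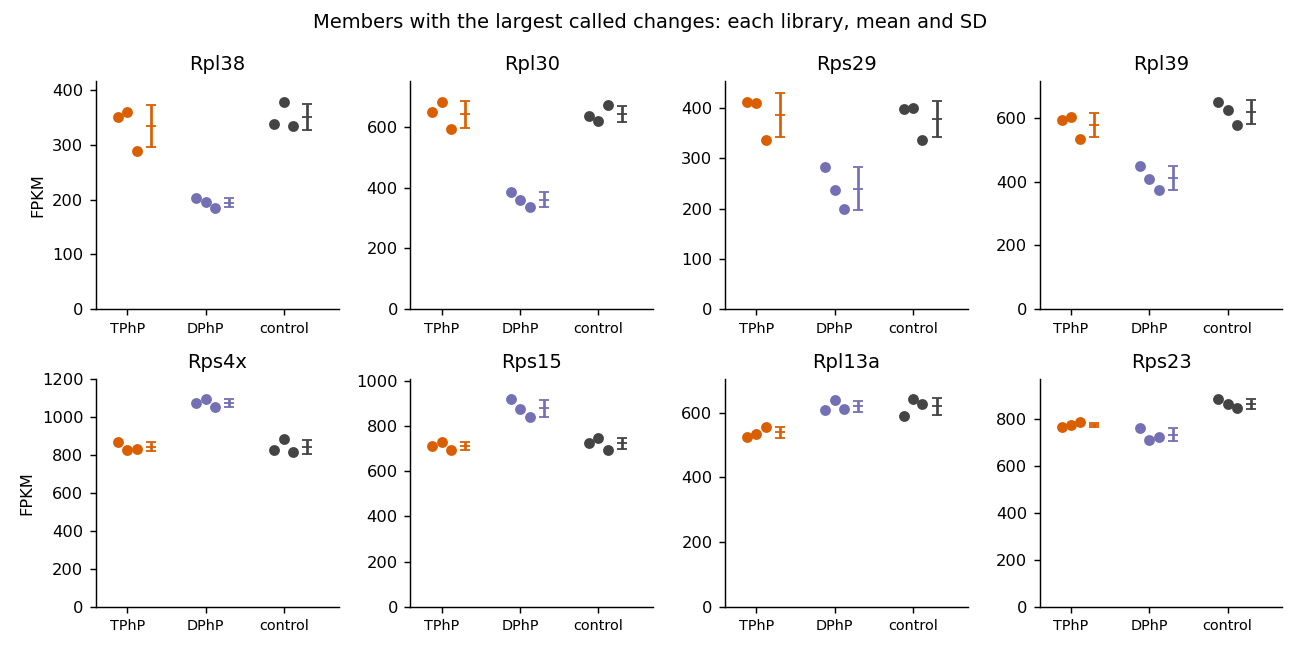
FPKM (vertical axis from 0) of 8 members in each of the 3 TPhP, 3 DPhP and 3 control libraries (points), with the mean and SD of each group beside them. Rpl38, Rpl30, Rps29 and Rpl39 are lowest in DPhP, Rps4x and Rps15 highest there, Rpl13a is lowest in TPhP, and Rps23 is below control in both treatments.

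Rpl5 and Rpl11 form a particle with the ribosomal 5S RNA and in free form restrain Mdm2, the inhibitor of p53. Rpl5 was at 554, 580 and 548 FPKM in TPhP, 526, 557 and 527 FPKM in DPhP, and 541, 563 and 546 FPKM in control libraries, and was not called in either treatment. Rpl11 averaged 350 ± 17.4 FPKM in TPhP, 306 ± 11.9 FPKM in DPhP and 382 ± 19.5 FPKM in control libraries, and changed in DPhP by -0.32 ± 0.04 on the log2 scale (adjusted p = 5.36e-05), a call lost only with the length trend removed. Rpsa, also known as a laminin receptor precursor, averaged 654 ± 6.38 FPKM in TPhP, 685 ± 26.0 FPKM in DPhP and 664 ± 22.7 FPKM in control libraries, and was not called in either treatment. In DPhP it was called higher at a common sum (0.13, adjusted p = 0.00209), with quantile normalization (0.15) and with the length trend removed (0.09).

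Transcript length went with the DPhP fold changes, in members and in the rest of the genome alike. Lengths were at or under 1000 bases for 59 of the 84 tested members (70.2%) and for 634 of 12038 other tested genes (5.27%). Among other genes the median log2 fold change in DPhP was -0.43 up to 500 bases (50 genes), -0.42 over 500 and up to 750 bases (212 genes), -0.32 up to 1000 bases (372 genes), -0.17 up to 1500 bases (1118 genes), -0.06 up to 3000 bases (4064 genes) and 0.05 above that (6222 genes). Members of the first 5 classes had medians of -0.23 (10 genes), -0.15 (25 genes), -0.15 (24 genes), -0.02 (14 genes) and 0.01 (9 genes), each above the other genes of that length. A gene's length here is that of its longest annotated transcript, and whether that transcript was the one expressed was not tested. The 2 members over 3000 bases by this measure, Rps20 (3706 bases) and Rps15a (5179 bases), went in opposite directions, by -0.47 and 0.21. Their median of -0.13 was below the other genes. Spearman's rho between length and log2 fold change was 0.23 across the 84 members and 0.26 across the 12038 other genes, as descriptions over genes of the same libraries. In TPhP the class medians of other genes ran from -0.04 to 0.02, and rho was 0.27 across members and 0.21 across other genes. When the length trend of all genes was removed by lowess, 43 members were higher and 14 lower in DPhP, with a median of 0.09, so the direction of the family against genes of like length is opposite to its direction against all genes. Beside these, 69.7% of all genes were called, 30.2% higher and 39.5% lower. Whether length itself, RNA quality or library preparation underlies the trend was not tested.

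**Figure D4:**
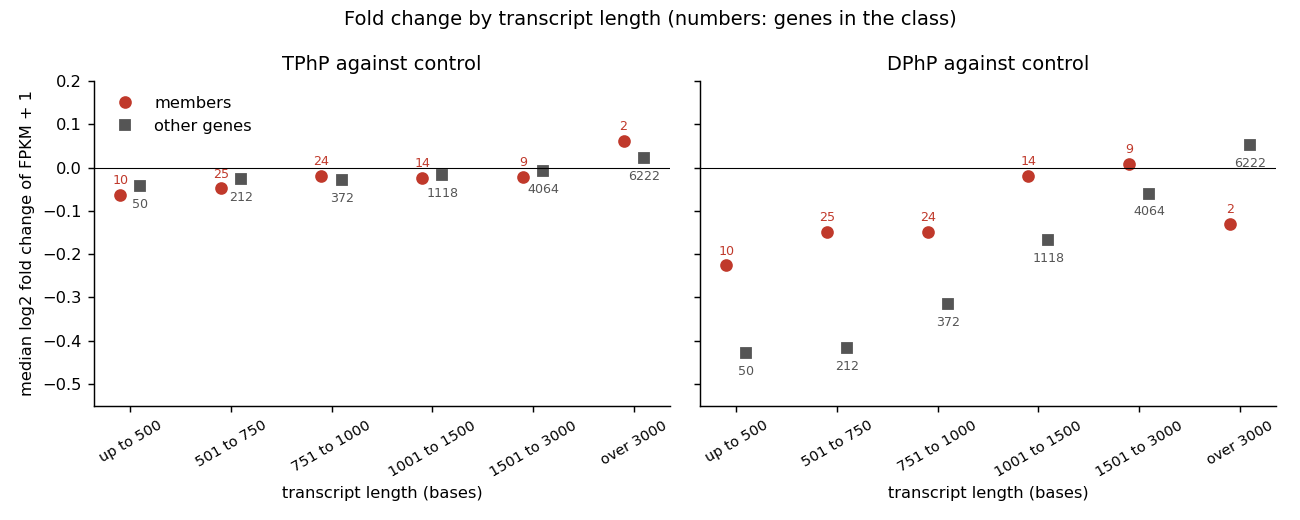
Median log2 fold change of FPKM + 1 (vertical axis) by class of transcript length in bases, for members (circles) and all other tested genes (squares), in TPhP against control (left) and DPhP against control (right), with the number of genes at each point. In DPhP the medians of other genes run from -0.43 in the shortest class to 0.05 in the longest, and members lie above them in the first 5 classes.

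In TPhP few members changed, and none rose. Of the 84 tested, 0 were higher and 4 lower by limma (4.76%), beside 6.22% of all genes, 2.58% higher and 3.64% lower. At a common sum 0 members were higher and 2 lower, beside 6.36% of all genes, 3.47% higher and 2.89% lower. At an unadjusted p under 0.05 the counts were 0 higher and 15 lower, 17.9% of members, beside 21.9% of all genes in either direction. The median log2 fold change was -0.04 over members and 0.01 over all genes. Rpl13a (chr7:45125563-45128745), which in interferon-treated myeloid cells leaves the ribosome to silence inflammatory messages, was at 526, 535 and 557 FPKM in TPhP, 608, 638 and 613 FPKM in DPhP, and 589, 641 and 628 FPKM in control libraries. TPhP lay below both other groups, with a log2 fold change against control of -0.20 ± 0.04 (adjusted p = 0.00676), and against DPhP of -0.20 (adjusted p = 0.000385). These calls held under all 22 alternatives, and at a common sum the change against control was -0.18.

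The other 3 TPhP calls were closer to the threshold. By the same measure the share of unique sequence was 49.7% for Rps23, 20.4% for Rpl13 and 8.14% for Rpl10. Rps23 (chr13:90923122-90924732), a protein of the decoding centre, was at 765, 772 and 785 FPKM in TPhP, 762, 708 and 723 FPKM in DPhP, and 882, 862 and 843 FPKM in control libraries. Both treatments were below every control library, with log2 fold changes of -0.16 ± 0.03 in TPhP (adjusted p = 0.0119) and -0.24 ± 0.03 in DPhP (adjusted p = 2.66e-05). The TPhP call was lost without control replicate 1 (adjusted p 0.00573 to 0.0549 over the 22 alternatives) or TPhP replicate 1, and the DPhP call with the length trend removed (-0.03, adjusted p = 0.338). Rpl13 was at 832, 754 and 835 FPKM in TPhP, 763, 783 and 812 FPKM in DPhP, and 883, 914 and 897 FPKM in control libraries, and Rpl10 at 1257, 1230 and 1272 FPKM in TPhP against 1317, 1342 and 1351 FPKM in control libraries. Their TPhP log2 fold changes of -0.16 (adjusted p = 0.0422) and -0.09 (adjusted p = 0.0475) were lost under 13 and 19 of 22 alternatives. The count of 4 fell to 1 without control replicate 1 and to 2 without control replicate 2, control replicate 3, TPhP replicate 1 or DPhP replicate 2.

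Set directly against each other, 34 members were higher and 19 lower in TPhP than in DPhP, beside 68.7% of all genes, 37.8% higher and 30.9% lower. At a common sum 29 were higher and 29 lower, beside 69.3% of all genes, 30.7% higher and 38.6% lower. Both counts of lower members include Rps27rt, which passed the filter only through DPhP. The doses behind the 2 treatments are not given, so these counts compare the libraries as labelled. The difference was 0.77 for Rpl38, 0.83 for Rpl30 and 0.70 for Rps29 on the log2 scale, and -0.35 for Rps4x and -0.31 for Rps15, with adjusted p-values of 2.50e-06, 1.10e-07, 0.000239, 3.05e-06 and 1.58e-05.

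Many members share sequence with processed copies elsewhere in the genome, and several copies have rows of their own. Only 54.1% of the 75-base stretches of a median member occur in no other annotated transcript, and 41 of the 88 members were under 50% by that measure. Rps6, the substrate of the S6 kinases, had the lowest level of the subunit proteins. It was listed at 15.44, 17.88 and 15.45 FPKM in TPhP, 17.88, 17.93 and 16.75 FPKM in DPhP, and 15.50, 15.45 and 16.67 FPKM in control libraries. LOC105244208, annotated as the transcribed pseudogene Rps6-ps4 (chr2:75190995-75191854), shares 84.1% of the Rps6 sequence and was at 838 to 903 FPKM in TPhP, 888 to 906 FPKM in DPhP and 905 to 944 FPKM in control libraries. Reads of the gene and of this copy cannot be told apart over most of its length, so the level of Rps6 and its call in DPhP (0.13, adjusted p = 0.0485) are uncertain. Rpl34-ps1 was likewise at 508 to 535 FPKM in TPhP, 428 to 467 FPKM in DPhP and 530 to 575 FPKM in control libraries, while Rpl34 itself was at 45.9 to 59.1 FPKM in TPhP, 51.8 to 59.5 FPKM in DPhP and 56.8 to 60.5 FPKM in control libraries. These copies, and those below, were chosen after their values were seen.

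Other copies were detected in some groups and not in others. Gm7429 (chrX:114980925-114981385), which shares 4.06% of the Rpl30 sequence, was at 0, 0.63 and 0 FPKM in TPhP, 144, 123 and 111 FPKM in DPhP, and 0.28, 0 and 0 FPKM in control libraries, while Rpl30 was lowest in DPhP. The retrogene Rps27rt, which shares 98.5% of the Rps27 sequence, was at 0 in all TPhP libraries, at 1.69, 1.77 and 8.90 FPKM in DPhP, and at 0, 1.77 and 0 FPKM in control libraries. It passed the filter only through DPhP, so its call there is no evidence about the family. Whether the reads were assigned alike in all libraries was not tested. Among 43 tested members with at least 50% unique sequence, 7 were higher and 23 lower in DPhP, beside 33.1% and 37.9% of all genes. In TPhP 0 of the 43 were higher and 0 lower, beside 6.22% of all genes called. With so few genes at that share, the counts of 0 say little.

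**Figure D5:**
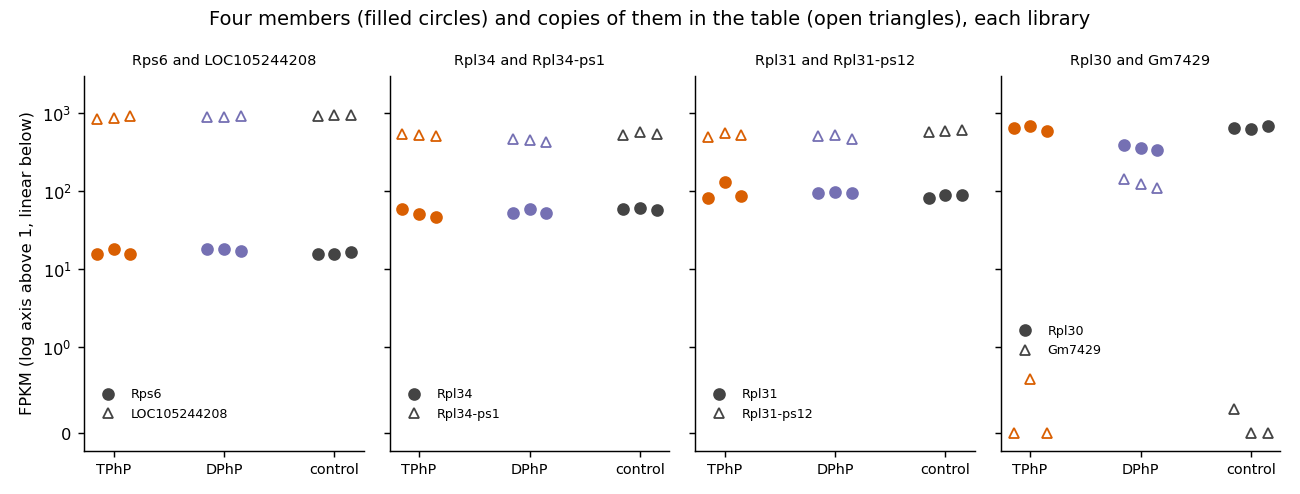
FPKM of 4 members (filled circles) and of a copy of each that has its own row (open triangles), in each TPhP, DPhP and control library, on an axis that is logarithmic above 1 and linear below. The Rps6, Rpl34 and Rpl31 copies lie above their parents in all libraries, and Gm7429 is above 1 FPKM only in DPhP.

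Other parts of the translation machinery also held genes called in both directions in DPhP. Ribosome constituents with other names fell too, with log2 fold changes of -0.72 for Fau (ubiquitin-like fusion of a small-subunit protein; 476 ± 10.6 FPKM in TPhP, 293 ± 4.84 FPKM in DPhP and 483 ± 13.9 FPKM in control libraries) and -0.14 for the scaffold Rack1. The call of Rack1 was lost at a common sum. The counts below, apart from those at a common sum, stand beside 33.1% of all genes higher and 37.9% lower. Of 13 elongation and termination factors, 5 were higher and 6 lower in DPhP (median -0.06). The translocase Eef2 changed by -0.43 (adjusted p = 1.22e-08) and the exchange factor Eef1b2 by -0.38, while Eef1g changed by 0.29 and the recycling factor Abce1 by 0.46. Of 40 initiation factors, 16 were higher and 10 lower (median 0.05), with Eif3k at -0.38, Eif3g at -0.27 and Eif4g2 at 0.24. Of 21 other TOP messages, most of which also stand in the lists above (Eef2, Eef1b2, Eif3k and Fau among them), 6 were higher and 10 lower (median -0.05). Tpt1, the translationally controlled tumour protein, averaged 2488 ± 52.3 FPKM in TPhP, 1527 ± 65.4 FPKM in DPhP and 2545 ± 51.3 FPKM in control libraries, a log2 fold change in DPhP of -0.74 (adjusted p = 3.90e-09). At a common sum, 42.2% of all genes were higher and 30.1% lower (median 0.06). Beside these, the elongation factors had 6 higher and 2 lower (median 0.03). The initiation factors then had 23 higher and 6 lower (median 0.12), and the other TOP messages 9 higher and 7 lower (median 0.03).

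Among ribosome biogenesis factors, calls in DPhP were more often higher than lower. In DPhP 41 of 79 were higher and 15 lower, with a median of 0.11, beside -0.02 over all genes. That is 51.9% higher and 19.0% lower, beside 33.1% and 37.9% of all genes, and 70.9% called in all, near the 71% of all genes. Tsr1, which acts in late maturation of the small subunit, changed by 0.58. Znhit6, an assembly factor for snoRNPs, changed by -1.81, to 26.8 ± 2.13 FPKM in DPhP, against 96.2 ± 3.27 FPKM in control libraries. Nat10, which acetylates ribosomal RNA, and Nop53, a factor of the large subunit, changed by -0.50 and -0.47. Of 34 tested genes of the mTOR pathway, 6 were higher and 19 lower in DPhP (median -0.11). The mTOR inhibitor Ddit4 averaged 14.0 ± 0.455 FPKM in TPhP, 30.6 ± 1.19 FPKM in DPhP and 13.5 ± 0.108 FPKM in control libraries (log2 fold change in DPhP 1.12), while the Rag GTPase Rragd changed by -0.74, the inhibitor Sesn1 by -0.49 and the translational repressor Eif4ebp2 by -0.44. At a common sum the biogenesis factors had 49 higher and 11 lower (median 0.19) and the mTOR pathway 9 higher and 13 lower (median -0.03). These stand beside 42.2% of all genes higher and 30.1% lower on that scale (median 0.06).

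In TPhP 0 of 40 initiation and 0 of 79 biogenesis factors were called, beside 2.58% of all genes higher and 3.64% lower. Of 13 elongation and termination factors 1, Eif5a, was lower by limma (-0.10, adjusted p = 0.0495). Of the 21 other TOP messages, Hnrnpa1 was lower (-0.12, adjusted p = 0.0455). At a common sum both of these calls were lost, and 3 initiation factors and 1 biogenesis factor were called higher. On that scale 3.47% of all genes were higher and 2.89% lower. Of 34 tested genes of the mTOR pathway, 4 were higher and 2 lower before scaling. Among them were Rragd (0.28), Deptor (0.32) and Rragc (0.19), with adjusted p-values of 0.00192, 0.00215 and 0.00202, and Myc (-0.20, adjusted p = 0.0339). The directions of Rragd in TPhP and in DPhP were opposite: it averaged 12.3 ± 0.285 FPKM in TPhP, 5.61 ± 0.257 FPKM in DPhP and 10.01 ± 0.176 FPKM in control libraries.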

How the data were processed

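RNA of 9 libraries was extracted with Trizol and sequenced from oligo(dT)-selected mRNA, per the labels. The authors deposited FPKM values for 19058 genes, on the build GRCm38.p6 per the submitters' processing notes. The aligner, the counting tool, the annotation, the strandedness and the depth are not stated (not given in the sources used here), so the precision of low values is unknown. All 9 columns were matched by name.

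Genes that reached 1 FPKM in 3 or more libraries were fitted as log2(FPKM + 1), with group means, by limma 3.58.1 (R 4.3.3) with an intensity trend, two-sided, Benjamini-Hochberg adjusted over 12369 genes per comparison. The pseudocount shrinks fold changes of low genes. The fit was tested on simulated data. Transcript lengths and shared 75-base stretches came from GENCODE M21, start-site windows from RefSeq. The length of a gene was that of its longest transcript linked to RefSeq, or of its longest transcript for members without a link. Whether that transcript was the one expressed was not tested. Sums and figures used Python 3.11.15, pandas 2.3.3, numpy 2.4.6 and matplotlib 3.10.9.

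Members and gene lists were chosen with earlier results of these data known. Named members were the 6 largest called rises and falls per comparison with a mean of at least 1 FPKM, a panel of paralogs with their parents, stalk proteins, Rpsa, Rps6, Rpl5 and Rpl11, the 5 most abundant members, and up to 4 called genes per list by smallest p. Other members named, among them Rpl13, Rpl34, Rpl31 and those named for holding their call under all alternatives, were chosen after their values were seen.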

Additional observations from a re-analysis of the deposited data

How the results depend on the processing

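The direction of single members held more often than the balance of the family. Of 2307 values of 35 named members under the alternatives, 2104 kept their side of the threshold, 129 lost a call, 51 gained one and 23 turned sign while called in the reported or the alternative setting. Of the 2104, another 81 turned sign without being called in either, and 2023 kept direction. The 4 lower calls in TPhP came to 2 with no filter on low values, at a common sum over all genes or over genes that are not members, with quantile normalization, in a fit to the 6 libraries compared, with no intensity trend and with the length trend removed (an alternative chosen after seeing the data), and to 0 among members with at least 50% unique sequence. They came to 6 with a mean of at least 5 FPKM, and to 5 with array weights or the replicate block. All 4 members have under 50% unique sequence, so the limit on unique sequence leaves them out and says nothing about their change. Leaving out 1 library gave 1 to 4 lower and 0 to 1 higher in TPhP, 14 to 17 higher and 39 to 47 lower in DPhP, and 31 to 35 higher and 15 to 20 lower in TPhP against DPhP.

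In DPhP against control, the counts of higher and lower members were 26 and 30 at a common sum, 25 and 31 at a common sum of non-members, 32 and 29 with quantile normalization, 43 and 14 with the length trend removed, and 7 and 23 of the 43 members with unique sequence, where fewer genes enter. In TPhP against DPhP the lower count was 29 at either common sum, 31 with quantile normalization, and 13 higher and 46 lower with the length trend removed, and 18 higher and 8 lower with unique sequence. The median log2 fold change turned to 0.094 in DPhP with the length trend removed. In TPhP against DPhP it turned to -0.012 at either common sum, -0.019 with quantile normalization and -0.13 with the length trend removed. The summed level moved to -1.74% in DPhP at a common sum and to -0.0553% in TPhP against DPhP, and leaving out 1 library gave -8.19% to -6.22% in DPhP, -3.79% to -1.56% in TPhP and 3.75% to 6.20% in TPhP against DPhP. For these scalings the cause was not tested.

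Among values called in either setting, those that turned sign in DPhP with the length trend removed were Rpl10 (0.21), Rpl13 (0.056), Rpl23a (0.24), Rpl36al (0.21), Rplp0 (0.036), Rplp1 (0.14), Rps2 (0.043), Rps27 (0.28) and Rps27l (0.094). With quantile normalization they were Rpl36al (0.0041), Rpl5 (0.14) and Rps2 (0.20), and at a common sum Rplp0 (0.0027). In TPhP against DPhP they were Rpl11 (-0.023), Rpl13 (-0.19), Rpl36al (-0.22), Rplp1 (-0.13), Rps2 (-0.077), Rps23 (-0.11) and Rps27 (-0.30) with the length trend removed, and Rpl10 (0.084), Rpl5 (-0.094) and Rps2 (-0.18) with quantile normalization.

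Replicate numbers showed no sign of pairing the libraries. Deviations from the group means correlated between -0.12 and 0.10 for same-numbered libraries and between -0.13 and 0.09 for the others. With 3 libraries a group, a weak effect shared by same-numbered libraries could not be seen. With the replicate block, 0 members were higher and 5 lower in TPhP, 18 higher and 47 lower in DPhP, and 38 higher and 19 lower in TPhP against DPhP.

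With 3 libraries a group and no read depth, changes of a few percent and levels near 0 FPKM are weakly determined, and members with little unique sequence depend on how reads were assigned.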
